A study of Mus musculus with 4 samples.

Results

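Cluster 12 is a group of 172 cells with high levels of both dendritic cell genes and cell division genes, among mouse spleen cells that carry the myeloid surface protein CD11b. The members are the cells to which the study's deposited cell table gives RNA cluster number 12 in its bundle of monocytes, macrophages and dendritic cells (the MoMacDC bundle). The bundle holds 6075 of the 11631 CD11b+ cells and is split into 17 clusters. CITE-seq was used, which reads the RNA of each cell as unique molecular identifiers (UMIs, each standing for 1 captured RNA molecule) and reads 5 surface proteins as counts of DNA-tagged antibodies. One steady-state library came from young adult mice without treatment, and one GM-conditioned library from mice given 3 daily subcutaneous injections of 10 µg GM-CSF, with the spleens taken 24 h after the last injection. The titles of these libraries name only the steady or the GM-conditioned state. The number of injections is from the study's description, and dose, route and time are those of its general methods. CD11b+ splenocytes were sorted in both, and no transgene or deletion was described for either. The strain and the number of mice behind each library are not given in the sources used here. Each condition was a single library, so condition and library cannot be told apart and no test between them was made. Cluster 12 was set beside cluster 9, the dendritic cluster next to it, and beside clusters 7 and 8, the other cycling clusters.

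Conventional dendritic cells (cDCs) take up antigen and show it to T cells on MHC class II molecules. They descend from bone marrow precursors that carry the cytokine receptor Flt3, and the last precursors leave the marrow, settle in the spleen and can still divide there. GM-CSF is a growth factor that signals through its own receptor and STAT5 and increases myeloid cells, monocyte-derived dendritic cells among them. A dividing cell first copies its DNA in S phase, with the MCM helicase and nucleotide-making enzymes at work, then passes through G2 and separates its chromosomes in mitosis (M), which needs the spindle, the kinetochores and the B cyclins.

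The steady-state library held 20 cells of cluster 12 and the GM-conditioned library 152. These were 0.937% of 2135 bundle cells (exact binomial 95% interval 0.573 to 1.44%) in steady state and 3.86% of 3940 bundle cells (3.28 to 4.51%) after GM-CSF. Of all sorted CD11b+ cells they made up 0.414% of 4827 (0.253 to 0.639%) and 2.23% of 6804 (1.90 to 2.61%). Among the cells of clusters 9 and 12 together, cluster 12 held 20 of 142 in steady state (14.1%, 8.82 to 20.9%) and 152 of 388 after GM-CSF (39.2%, 34.3 to 44.2%). Since cycling genes set the border between these clusters, the share of clusters 9 and 12 together that carried an S or G2/M label is given as well, and it was 37 of 142 (26.1%, 19.1 to 34.1%) and 241 of 388 (62.1%, 57.1 to 67.0%). All intervals in the text cover counting error only, and the spread between mice is unknown.

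The libraries held 22358903 UMIs in 4827 cells (median 3371) in steady state and 35007567 in 6804 cells (median 4916) after GM-CSF. Cluster 12 cells were deeper than the typical cell, with a median of 11927.5 UMIs in steady state and 9647.5 after GM-CSF, against 6082 in cluster 9, 7902 in cluster 7 and 10545 in cluster 8 of the GM-conditioned library. The libraries shared 8 cell barcodes, and 2 of these belonged to GM-conditioned cells of cluster 12. Doublets were called but kept, and the calls took in 8 of 152 GM-conditioned cells of cluster 12 (5.26%), 2 of 236 of cluster 9, 14 of 370 of cluster 7 and 25 of 352 of cluster 8 (7.10%), beside 2.73% of the whole library. None of the 20 steady-state cells of cluster 12 was called. In the clustering of all CD11b+ cells, 151 of the 152 and 19 of the 20 lay in the cluster that the study named progenitor DC, and so did 225 of 236 and 100 of 122 cells of cluster 9.

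Some cells of cluster 12 carried RNA of other lineages, and several results that rest on them are also given without them. The comparison of S with G2/M cells was made only with them. With a limit of 0.5% of a cell's UMIs from the neutrophil, B, T, NK, erythroid and basophil lists, chosen after the values were seen, there were 6 such cells. A GM-conditioned cell of 17651 UMIs held 1791 from the neutrophil list (10.1%) and a second of 8697 UMIs held 403, and both were called doublets. The other GM-conditioned cells were one of 10330 UMIs with 85 from the NK list and one of 7621 UMIs with 40 from the neutrophil list. All 4 were labelled S phase. In steady state, a cell of 13526 UMIs held 296 and a cell of 19679 UMIs held 254 from the neutrophil list. A further steady-state cell stayed under the limit but held 43 UMIs of the B cell list, where the next cell held 2. That cell, singled out after its values were seen, had all 12 Cd79a and all 24 Ly6d UMIs of the 20 cells, no Flt3 UMI, 4 CD11c tag counts against 301 to 947 in the other 19 cells, and 6359 MHC II tag counts against 568 to 2941.

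The genes given as markers of these cells were Flt3, the cytokine receptor of dendritic precursors and cDCs, Mki67, a nuclear protein of dividing cells, and Top2a, the topoisomerase that untangles chromosomes. Expression levels are given in CPM, the UMIs of a gene per 1000000 UMIs of the cells of the group. Flt3 stood at 102 CPM in GM-conditioned cluster 12, 116 in cluster 9, 7.77 in cluster 7 and 10.4 in cluster 8, and at 146 CPM in steady-state cluster 12. Mki67 stood at 765 CPM in cluster 12, 74.0 in cluster 9, 484 in cluster 7 and 852 in cluster 8, and at 682 CPM in steady-state cluster 12. Top2a stood at 966 CPM in cluster 12, 16.1 in cluster 9, 404 in cluster 7 and 989 in cluster 8, and at 954 CPM in steady-state cluster 12. Cluster 12 therefore stood close to cluster 9 in Flt3 (ratio 0.884, 0.707 to 1.10) and close to cluster 8 in Mki67 and Top2a, with Top2a more than 2-fold above cluster 7, while its Mki67 was 10.3 times (8.50 to 12.7) and its Top2a 59.9 times (40.1 to 93.8) that of cluster 9. These ratios describe the cells, since the clusters were drawn from the same RNA counts.

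Few listed genes of stem cells and progenitors were present. Kit, the stem cell factor receptor, stood at 106 CPM in cluster 12 and 102 in cluster 9 (ratio 1.04, 0.827 to 1.31), at 2.27 in cluster 7 and 2.46 in cluster 8. The other 11 genes of a list of 12 for stem cells and myeloid progenitors were at or close to 0 in the 152 cells. Cd34, Mpo, Ctsg, Ms4a3, Gata2 and Hlf had no UMI, so each could stand at up to 1.98 CPM (3 counts of the total). Myb, a regulator of blood progenitors, Sox4 and the granule proteases Elane and Prtn3 had 1 UMI each. Meis1 had 12 UMIs (7.91 CPM, against 15.5 in cluster 9). Siglech, the defining surface protein of plasmacytoid dendritic cells, had none. The list of 12 was made for stem cells and myeloid progenitors, so it cannot decide whether these cells are late dendritic precursors. Flt3 and Kit cannot decide it either, since cluster 9 carried them at similar levels and mostly lay in the progenitor DC cluster too. The group is called by its number.

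**Figure D1:**
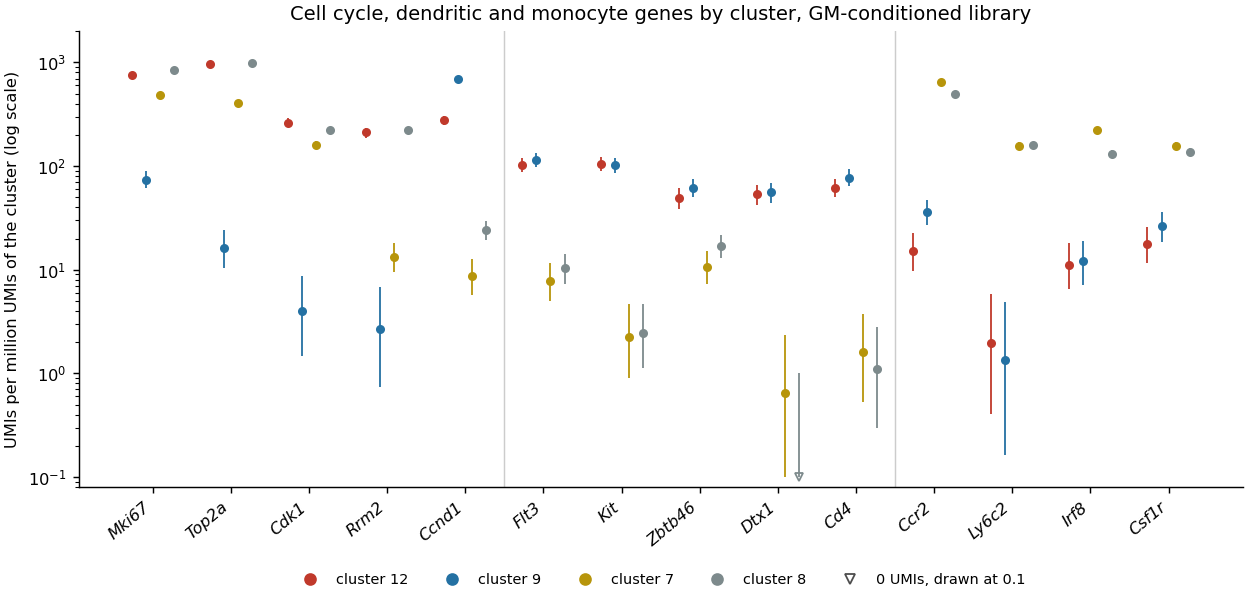
Levels of marker genes in clusters 12, 9, 7 and 8 of the GM-conditioned library, in CPM on a log axis, with exact Poisson 95% intervals as bars (counting error only, 1 library). Genes without a UMI are drawn at 0.1 and intervals are cut there. Flt3 and Kit of cluster 12 sit with cluster 9 (102 against 116 and 106 against 102 CPM), and its Mki67 and Top2a sit with cluster 8 (765 against 852 and 966 against 989 CPM).

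The promoters of the 3 marker genes are shown because the genes come from the programmes that meet in cluster 12. Each sequence is the 250 bases before the start of the gene from RefSeq on GRCm38.p6, 5′ to 3′ on the strand of the gene, and all 3 genes lie on the minus strand. Capitals mark the CHR element TTTGAA, a sequence bound by the complexes that time genes to G2 and mitosis, and the CCAAT box, each searched on either strand.
Flt3, chr5:147400490-147400739: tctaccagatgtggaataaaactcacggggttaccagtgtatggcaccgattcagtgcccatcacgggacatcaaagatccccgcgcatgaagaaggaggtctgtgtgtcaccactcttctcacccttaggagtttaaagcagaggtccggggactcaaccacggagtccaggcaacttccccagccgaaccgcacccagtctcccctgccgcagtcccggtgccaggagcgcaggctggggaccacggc
Mki67, chr7:135716380-135716629: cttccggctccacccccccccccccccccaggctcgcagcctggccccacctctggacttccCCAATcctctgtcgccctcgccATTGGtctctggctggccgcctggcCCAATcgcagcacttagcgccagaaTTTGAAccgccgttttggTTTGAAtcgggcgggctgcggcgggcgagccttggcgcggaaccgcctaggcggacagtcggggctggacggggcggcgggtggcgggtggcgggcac
Top2a, chr11:99024190-99024439: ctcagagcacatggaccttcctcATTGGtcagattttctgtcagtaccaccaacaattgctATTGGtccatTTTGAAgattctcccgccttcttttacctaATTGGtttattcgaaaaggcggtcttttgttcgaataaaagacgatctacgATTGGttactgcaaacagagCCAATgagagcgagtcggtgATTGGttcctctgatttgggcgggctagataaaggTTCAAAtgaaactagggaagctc
The Mki67 window held 2 CHR and 3 CCAAT matches, the Top2a window 2 CHR and 6 CCAAT matches, and the Flt3 window neither.

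The same search over the gene lists gives the setting for those windows. Of all 32851 promoters of this length, 16% held the CHR element, 33.8% the CCAAT box, 1.86% one of the E2F sequences TTTGGCGC, TTTGCCGC, TTTCGCGC or TTTCCCGC, and 2.30% the PU.1-IRF composite element. Of the 18 genes of the study's cycling list 12 had a promoter in the table, and 6 of these held the CHR element (Ccnb2, Mki67, Nucks1, Smc2, Top2a and Ube2c), 10 the CCAAT box and none an E2F sequence. Of 19 DNA replication genes 15 had a promoter, of which 3 held the CHR element, 11 the CCAAT box and 5 an E2F sequence (Cdc6, Mcm5, Mcm6, Mcm7 and Pola1). Of 19 mitosis genes 17 had a promoter, of which 7 held the CHR element, 15 the CCAAT box and 1 an E2F sequence (Cdk1). Of the study's 10 dendritic genes 6 had a promoter, of which none held the CHR element, 3 the CCAAT box and 1 the PU.1-IRF element (Ffar2, a receptor for short-chain fatty acids). The share over all is per promoter, while a gene of a list counted if any of its promoters held a match, so the units differ. A match is a description of letters in the window and not a bound site.

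Every cell of cluster 12 carried a label of the dividing phases. The study scored each cell for S and G2/M genes, and in the GM-conditioned library 35 cells of cluster 12 were in S (23.0%) and 117 in G2/M (77.0%). None of the 152 was in G1, which allows a share of up to 1.97% (3 counts). In cluster 9 the counts were 147 in G1, 40 in S and 49 in G2/M, so that 37.7% (31.5 to 44.2%) were in S or G2/M. In cluster 7 86.5% and in cluster 8 all cells were in S or G2/M. The split between the phases was different in steady state, where 11 of the 20 cells of cluster 12 were in S (55.0%) and 9 in G2/M (45.0%). Only 13.9% of steady-state cluster 9 cells carried either label. Depth differs between the clusters, so the phases were scored again after each cell had been thinned to 1000 UMIs, and 152 of 152 cells of cluster 12, 123 of 234 of cluster 9 (52.6%), 300 of 370 of cluster 7 (81.1%) and 351 of 352 of cluster 8 (99.7%) were then in S or G2/M. The new scores were made with scanpy and the deposited ones with Seurat, so depth and scoring method changed together.

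**Figure D2:**
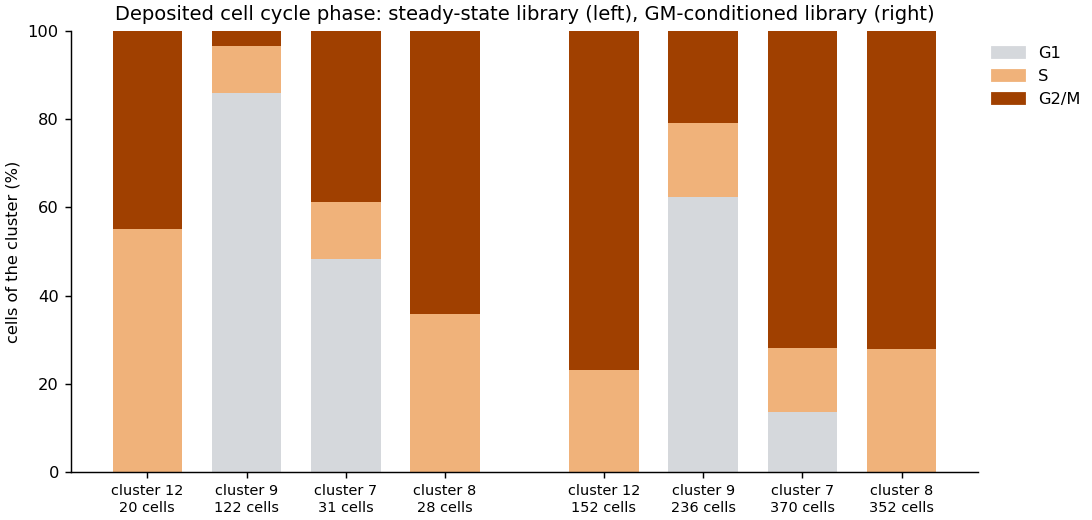
Deposited cell cycle phase of each cell as a share of the cluster in percent, with steady state at the left and GM-conditioned at the right, and G1, S and G2/M stacked in each bar. Cluster 12 has no G1 cell in either library, with 55.0% of 20 steady-state cells and 23.0% of 152 GM-conditioned cells in S.

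Against cluster 9, the genes of the cell cycle set cluster 12 apart. Among genes with at least 50 UMIs over both groups, a gene counted as higher or lower when the CPM of the groups differed at least 2-fold, after adding 0.5 counts to every sum. By this rule 448 of 6207 genes were higher in cluster 12 (7.22%) and 91 were lower (1.47%). All 18 genes of the cycling list were higher, with a median ratio of 7.96 beside 0.961 over all genes tested. The study chose this list on these cells, so the count is not independent evidence. Summed, the list stood at 12441 CPM in cluster 12 and 1794 in cluster 9 (ratio 6.94, 6.66 to 7.23). The list was also higher than in the 89 cells of cluster 9 that were themselves labelled S or G2/M, at 3312 CPM (ratio 3.76, 3.58 to 3.94). In that comparison 355 of 5149 genes were higher in cluster 12 (6.89%) and 54 lower (1.05%), among them 15 of 18 cycling, 16 of 19 mitosis and 11 of 17 replication genes on the higher side.

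All 17 DNA replication genes with enough UMIs and all 19 mitosis genes were at least 2-fold higher than in cluster 9, with median ratios of 4.64 and 10.0. Over all genes 7.22% were higher. Rrm2, the regulatory subunit of the enzyme that makes deoxynucleotides, stood at 211 CPM against 2.69 (78.5-fold, 30.4 to 290). Mcm2, a subunit of the replicative helicase, stood at 71.9 against 32.3 CPM (2.23-fold, 1.57 to 3.20) and Pcna, the sliding clamp of DNA polymerase, at 84.4 against 26.2 CPM (3.22-fold, 2.23 to 4.73). The helicase subunits Mcm2, Mcm3 and Mcm4 thus lay close to the 2-fold limit, at 2.23, 2.60 and 2.20. Cdk1, the kinase that starts mitosis, stood at 262 against 4.03 CPM (64.9-fold, 29.6 to 178), and the spindle protein Nusap1 at 299 against 2.02 CPM (148-fold, 50.5 to 722). Ccnb2, a B cyclin that partners Cdk1, had the lowest ratio of the mitosis genes, 2.11 (1.76 to 2.54).

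The cyclins and cell cycle inhibitors did not all lie on the same side. Of 14 with enough UMIs, 8 were at least 2-fold higher than in cluster 9 and 2 were lower, beside 7.22% and 1.47% of all genes. Ccna2, the cyclin of S and G2, stood at 205 against 8.07 CPM and Ccne1, which takes cells into S phase, at 42.2 against 8.74 CPM. The D cyclins Ccnd1 and Ccnd2 went the other way. Ccnd1 stood at 276 against 693 CPM (ratio 0.398, 0.354 to 0.446) and Ccnd2 at 11.9 against 52.4 CPM (0.226, 0.128 to 0.382). Ccnd1 is also on the study's dendritic list, and clusters 7 and 8 held it at 8.74 and 24 CPM. Cluster 12 held more of the INK4 inhibitors Cdkn2c (131 against 11.4 CPM) and Cdkn2d (158 against 28.9 CPM) than cluster 9, while Cdkn1b, the inhibitor of resting cells, stood at 107 and 95.5 CPM (ratio 1.12, 0.888 to 1.41).

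Against clusters 7 and 8, cell cycle genes hardly differed. Of 8563 genes tested, 357 were at least 2-fold higher in cluster 12 (4.17%) and 764 were lower (8.92%). No gene of the cycling list passed the limit in either direction, with a median ratio of 1.29 beside 0.990 over all genes, and the summed list stood at 12441 CPM in cluster 12 against 6972 in cluster 7 and 11061 in cluster 8 (ratio to both 1.35, 1.33 to 1.38). None of the 19 mitosis genes passed, and of the 19 replication genes 1 did, Tyms, which makes thymidylate (174 against 26.2 and 137 CPM). The likeness was to cluster 8 more than to cluster 7. In cluster 7, where 7.69% of all 7402 genes were lower than in cluster 12, 8 of 18 cycling genes and 17 of 18 replication genes were at least 2-fold lower than in cluster 12, and 8.82% of all genes were higher. In cluster 8, with 4.05% of 7648 genes lower and 7.36% higher than in cluster 12, none of the cycling or replication genes passed the limit. Rrm2 shows this with 211 CPM in cluster 12, 13.3 in cluster 7 and 222 in cluster 8.

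In the steady-state library the direction of the cycling list against clusters 7 and 8 turned, with a ratio of 0.857 (0.816 to 0.900). In that library 5 of the 31 cells of cluster 7 and 22 of the 28 cells of cluster 8 held at least 0.5% of their UMIs from other lineages, and the part of these cells in the ratio was not tested.

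The dendritic genes, in turn, set cluster 12 apart from clusters 7 and 8. The study's dendritic list holds 10 genes chosen on these cells for clusters 9, 12 and 14, and its counts are not independent evidence either. All 10 were at least 2-fold higher in cluster 12 than in clusters 7 and 8, from Ffar2 (425 CPM against 106 and 75.1) to the surface protein Cd7 (202 CPM against 8.09 and 7.92), with a median ratio of 17.8. Summed, the list stood at 2667 CPM in cluster 12, 265 in cluster 7 and 222 in cluster 8 (ratio to both 11, 10.4 to 11.7). Cluster 9 held more, at 3771 CPM (ratio of cluster 12 to cluster 9 0.707, 0.679 to 0.737), and 1 of the 10 genes, Ccnd1, was at least 2-fold lower in cluster 12. The nuclease Dnase1l3 (115 against 207 CPM), Asb2 (152 against 274 CPM) and Tbc1d4 (237 against 371 CPM) stood lower too but within 2-fold, while H2-Oa, which limits peptide loading on MHC class II, stood at 264 and 275 CPM.

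A list of genes shared by cDCs placed cluster 12 close to cluster 9 as well. The shared cDC list is not fully independent, since 4 of its 8 genes (H2-DMb2, Itgax, Kmo and Ciita) are among those that the study picked for P-IV cells from these libraries. Of 8 genes shared by cDCs none differed 2-fold from cluster 9 (median ratio 0.852). Against clusters 7 and 8, 6 were at least 2-fold higher, beside 4.17% of all genes. Zbtb46, a transcription factor of the cDC lineage, stood at 49.5 CPM in cluster 12, 61.9 in cluster 9, 10.7 in cluster 7 and 16.9 in cluster 8. Of 10 cDC2 genes with enough UMIs 1 was lower than in cluster 9, beside 1.47% of all genes. It was the lectin Clec10a (13.2 against 28.2 CPM, ratio 0.467, 0.260 to 0.814). Summed, the cDC2 list stood at 663 CPM in cluster 12, 810 in cluster 9, 873 in cluster 7 and 681 in cluster 8. Against clusters 7 and 8, 2 of 7 cDC2 genes with enough UMIs were at least 2-fold higher, Cd4 and Dtx1, and 1 was lower, Clec10a (ratio 0.112). The median ratio was 0.808. Over all genes 4.17% were higher and 8.92% lower. The list as a whole thus did not mark clusters 12 and 9. Cd4 and Dtx1 did, and both are genes of the Notch-dependent, Esam-bearing cDC2s of the spleen. Cd4 stood at 62.0 CPM in cluster 12 and 77.3 in cluster 9, against 1.62 in cluster 7 and 1.09 in cluster 8. Dtx1, a Notch target, stood at 53.4 and 55.8 CPM against 0.648 in cluster 7 and no UMI in cluster 8. Clec4a4 (the DCIR2 antigen) stood at 18.5 and 19.5 CPM, Tbx21 at 19.1 and 15.5 CPM and Esam at 13.9 and 25.6 CPM, while clusters 7 and 8 had no UMI of Esam or Tbx21. Clec4a4, Tbx21 and Esam had too few UMIs to be counted against clusters 7 and 8.

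Surface proteins that define cDC1s were at or near 0, while other genes of the cDC1 list were not. Xcr1 had 2 UMIs in the 152 cells, and Clec9a, Cd8a and Cadm1 had none. Of 4 genes of the 11 with enough UMIs, 1 was at least 2-fold lower than in cluster 9 (Itgae), beside 1.47% of all genes. Summed, the list stood at 737 CPM in cluster 12, 873 in cluster 9, 971 in cluster 7 and 962 in cluster 8. Wdfy4, needed for presenting cell-bound antigen, stood at 391.8 CPM in cluster 12, 429 in cluster 9, 110 in cluster 7 and 140 in cluster 8. Irf8, the transcription factor that cDC1s need, stood at 11.2 CPM in cluster 12 and 12.1 in cluster 9, against 221 in cluster 7 and 131 in cluster 8. Batf3, its partner in cDC1s, did not follow that order, with 187, 229, 135 and 154 CPM. Irf4, used by cDC2s, was level across the clusters at 36.3, 42.4, 44.4 and 33.6 CPM.

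None of the 17 dendritic cell and myeloid transcription factors with enough UMIs differed 2-fold between clusters 12 and 9, with a median ratio of 0.888. Against clusters 7 and 8, 5 of 19 were at least 2-fold higher and 5 were lower, beside 4.17% and 8.92% of all genes. Those on the higher side were Zbtb46, Tcf4 (100 CPM against 51.5 and 32.2), Relb (67.9 against 26.6 and 24.3), Runx3 (104 against 52.8 and 46.7) and Bcl11a (324 against 125 and 160). On the lower side, Cebpb, a factor of monocytes and granulocytes, stood at 36.3 CPM against 453 and 432, and Zeb2 at 156 against 559 and 479 CPM. Irf8, Cebpa (25.7 against 69.9 and 53.3 CPM) and Nfil3 (4.62 against 23.3 and 22.1 CPM) made up the rest.

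Monocyte genes separated cluster 12 from the other cycling cells. Of 11 classical monocyte genes 10 were at least 2-fold lower than in clusters 7 and 8, beside 8.92% of all genes, with a median ratio of 0.114. Ly6c2, which encodes Ly6C, had 3 UMIs in 1 cell of the 152 (1.98 CPM) and stood at 155 and 158 CPM in clusters 7 and 8. Ccr2, the receptor that brings monocytes out of the marrow, stood at 15.2 CPM against 643 and 501, and Csf1r, the receptor for M-CSF, at 17.8 CPM against 156 and 137. Vcan and F13a1 had no UMI in cluster 12, and stood at 117 and 77.1 CPM in cluster 7. The exception was Ms4a4c, with 241 CPM against 219 and 171.

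MHC class II genes in the dividing cells of cluster 12 stood close to those of cluster 9. None of 10 differed 2-fold (median ratio 0.927), and the summed list stood at 25486 CPM in cluster 12, 27285 in cluster 9, 18276 in cluster 7 and 18124 in cluster 8. H2-Aa, a chain of the class II molecule itself, stood at 4741 CPM in cluster 12, 4540 in cluster 9, 3424 in cluster 7 and 3506 in cluster 8. The 3 genes at least 2-fold above clusters 7 and 8 all belong to peptide loading, namely H2-DMb2 (280 against 60.5 and 88.5 CPM), H2-Oa (264 against 47.9 and 32.2) and H2-Ob (70.6 against 13.3 and 15.8). H2-DMb1 and H2-DMb2 are close copies, and H2-DMb1 went the other way at 281 against 450 and 526 CPM, so the split between them is uncertain.

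The receptors through which GM-CSF acts were present. Csf2ra, its specific chain, stood at 98.9 CPM in cluster 12, 96.1 in cluster 9, 174 in cluster 7 and 171 in cluster 8, and Csf2rb, the signalling chain, at 129, 136, 217 and 185 CPM. Of 14 cytokine receptor genes tested none differed 2-fold from cluster 9, with a median ratio of 0.981. Against clusters 7 and 8, 2 of 17 were higher (Flt3 and Kit) and 4 were lower (Csf1r, Csf3r, Il3ra and Il1rl1), beside 4.17% and 8.92% of all genes. Of 6 chemokine and homing receptors with enough UMIs 1 was higher than in cluster 9, Cxcr4, and 1 lower, Ccr2 (15.2 against 36.3 CPM, ratio 0.418, 0.245 to 0.692). Over all genes 7.22% were higher and 1.47% lower. Cxcr4, which holds cells near the chemokine CXCL12, stood at 71.2 against 9.41 CPM (7.57-fold, 4.32 to 14.3), and clusters 7 and 8 held it at 64.1 and 132 CPM. Ccr6 joined the dendritic side, with 27.7 CPM in cluster 12 and 44.4 in cluster 9 against 0.648 and 0.820 CPM. Ccr7, the receptor of migrating dendritic cells, had 6 UMIs in 5 cells (3.96 CPM).

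Both programmes were found in the same cells. In each cell, the UMIs of a list were divided by the UMIs of the cell and multiplied by 10000. The median level of the cycling list in GM-conditioned cells was 131 in cluster 12 (quartiles 108 and 149, range 7.15 to 193), 8.67 in cluster 9, 57.0 in cluster 7 and 116 in cluster 8. The median level of the dendritic list was 25.5 in cluster 12 (range 7.68 to 65.3), 37.9 in cluster 9, 1.63 in cluster 7 and 1.31 in cluster 8. Of the 152 cells, 151 lay above the 95th percentile of clusters 7 and 8 on the dendritic list (99.3%, 96.4 to 100.0%) and 150 above the 95th percentile of the G1 cells of cluster 9 on the cycling list (98.7%). Among cluster 9 cells labelled S or G2/M, 47 of 89 passed the latter limit (52.8%). The study chose both lists on these cells with cluster 12 among the clusters they mark. Passing these limits therefore follows from that choice and is not independent evidence. In steady state the 20 cells were more spread on the cycling list, with quartiles at 27 and 154 around a median of 88.5 and a minimum of 6.31. The lower quartile was below the highest cell of steady-state cluster 9 (30.4) but above that cluster's upper quartile (6.47). Every one of the 20 was labelled S or G2/M.

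**Figure D3:**
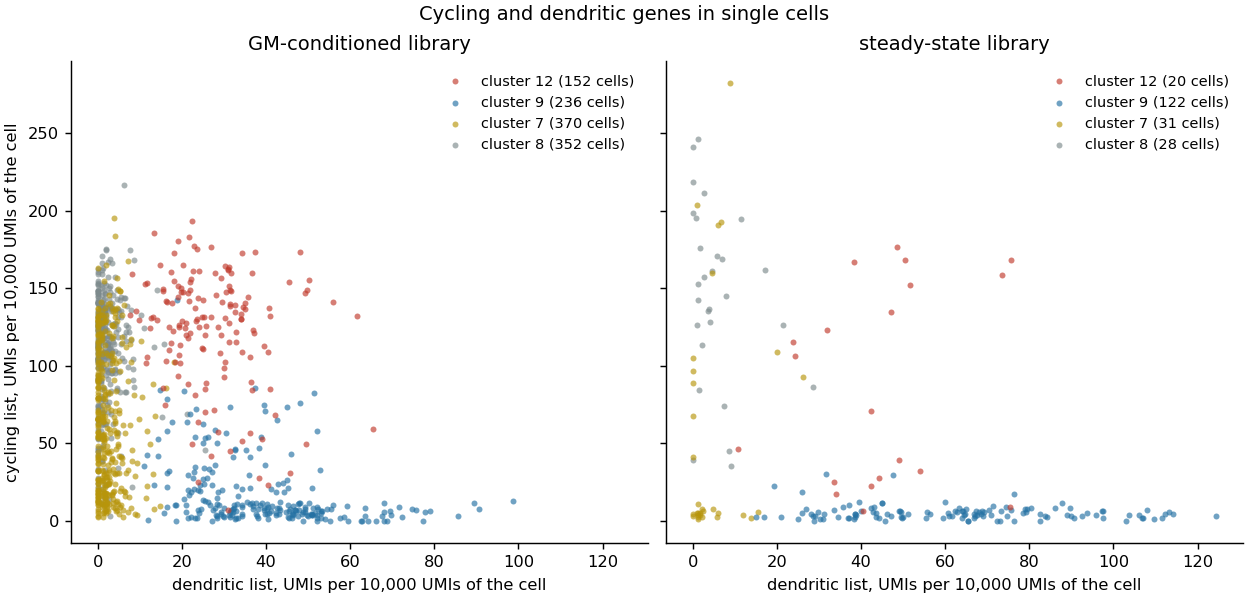
Each point is a cell, with its UMIs from the study's dendritic list on the x axis and from the cycling list on the y axis, both per 10000 UMIs of the cell, for the GM-conditioned library at the left and steady state at the right. Cluster 12 lies to the right of clusters 7 and 8 (dendritic medians 25.5 against 1.63 and 1.31) and above cluster 9 (cycling medians 131 against 8.67).

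Lists of growth and signalling genes showed little difference from cluster 9. None of 6 ribosome biogenesis genes and none of 4 STAT5 and SOCS genes differed 2-fold, with Npm1, a nucleolar protein, at 1237 CPM in cluster 12 and 925 in cluster 9 and the kinase Jak2 at 110 and 136 CPM. The same held for 7 non-classical monocyte, 2 macrophage and 2 activated dendritic cell genes with enough UMIs. The classical monocyte list differed more, at 1465 against 2171 CPM (ratio 0.675, 0.639 to 0.712), and of 5 genes with enough UMIs 1 was lower (Ccr2) and 1 higher (Chil3, 25.7 against 12.1 CPM). Without the cells of other lineages Chil3 stood at 4.08 CPM in cluster 12. The macrophage genes C1qa, C1qb and C1qc had 4, 8 and 5 UMIs in the 152 cells and Mertk and Fcgr1 had none. All 6 neutrophil genes with enough UMIs were higher than in cluster 9, with the list at 1680 CPM, and without the cells of other lineages the list in cluster 12 stood at 212 CPM beside 214 in cluster 9.

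Single UMIs of the marker genes were also counted at a matched depth. With each cell thinned to 1000 UMIs, 11 of 152 cells of cluster 12 held both a Flt3 UMI and a Mki67 or Top2a UMI (7.24%, 3.67 to 12.6%, and 7.75% as the mean over repeated draws). In cluster 9 3 of 234 cells did (1.28%, mean over draws 0.801%), in cluster 7 1 of 370 (0.270%, mean 0.207%) and in cluster 8 3 of 352 (0.852%, mean 0.720%). Flt3 by itself was held by 8.55% of cells in cluster 12, 9.40% in cluster 9, 0.811% in cluster 7 and 0.852% in cluster 8. For Mki67 or Top2a the shares were 77.0%, 8.12%, 40.5% and 80.7%. Whether the joint shares differ from what these single shares give for unlinked genes was not tested. Neutrophils, which should lack Flt3, had 0 of 880 such cells, which allows a share of up to 0.341% (3 counts). Thinning left out 2 cells of cluster 9 and 13 neutrophils. Without thinning the shares were 67.1% in cluster 12, 14.8% in cluster 9, 2.97% in cluster 7 and 6.25% in cluster 8, with 0 of 893 neutrophils, at median depths of 9647.5 UMIs in cluster 12 and 4404 in neutrophils. All 152 cells of cluster 12 had a Mki67 or Top2a UMI at full depth, so the unthinned share there is that of Flt3 alone.

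The surface proteins did not enter the clustering and so are a separate view of the same cells. CD11c, an integrin of dendritic cells, had a median of 459 tag counts in GM-conditioned cluster 12 (range 149 to 1049), against 329 in cluster 9, 120.5 in cluster 7 and 240 in cluster 8. MHC II had a median of 668 in cluster 12 (range 139 to 2299), against 344, 221 and 397.5. All 152 cells lay above the 95th percentile of T cells of the same library for both proteins, which were 12.2 and 32.4 tag counts. These limits, like those for the other proteins below, rest on 39 T cells. Ly6C, carried by classical monocytes, had a median of 13 in cluster 12 and 10 in cluster 9, against 79 in cluster 7 and 54 in cluster 8, and 4 of 152 cells of cluster 12 (2.63%) passed the T cell limit of 69.2 where 200 of 370 and 162 of 352 cells of clusters 7 and 8 did.

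CD115, the protein of Csf1r, was also low. Its median was 6.5 tag counts in cluster 12 (range 0 to 89) and 4 in cluster 9, against 35 and 48 in clusters 7 and 8. Of the 152 cells 104 (68.4%) lay above the T cell limit of 4.0, and 1 was among the CD115hi cells of the study, in its subset P-IV, against 2 of 236 cells of cluster 9, 52 of 370 of cluster 7 and 82 of 352 of cluster 8. CD301b, the lectin that the study used to mark dendritic cells induced by GM-CSF, had a median of 8 in cluster 12 and 6 in cluster 9, against 14 and 26, and 69 of 152 cells (45.4%) passed the T cell limit of 8.0. Granulocytes and neutrophils of the same library passed the CD115 limit in 49.4% and 22.6% of cells. They passed the CD301b limit in 9.44% and 33.9%, so passing these limits is not particular to dendritic cells.

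Cluster 12 thus had more raw tag counts than cluster 9 for all 5 proteins, and this order depended on scaling. With each cell scaled to the median total tag count, the medians in clusters 12 and 9 were 272 and 321 for CD11c, 395 and 341 for MHC II, 3.77 and 3.84 for CD115, 7.66 and 9.47 for Ly6C and 4.85 and 5.44 for CD301b, so that MHC II alone kept its direction. The contrast with clusters 7 and 8 in Ly6C (112 and 42.9 scaled) and CD115 (39.6 and 30.1 scaled) kept its direction. In steady state the raw medians in clusters 12 and 9 were 493.5 and 375 for CD11c and 1669.5 and 992.5 for MHC II.

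**Figure D4:**
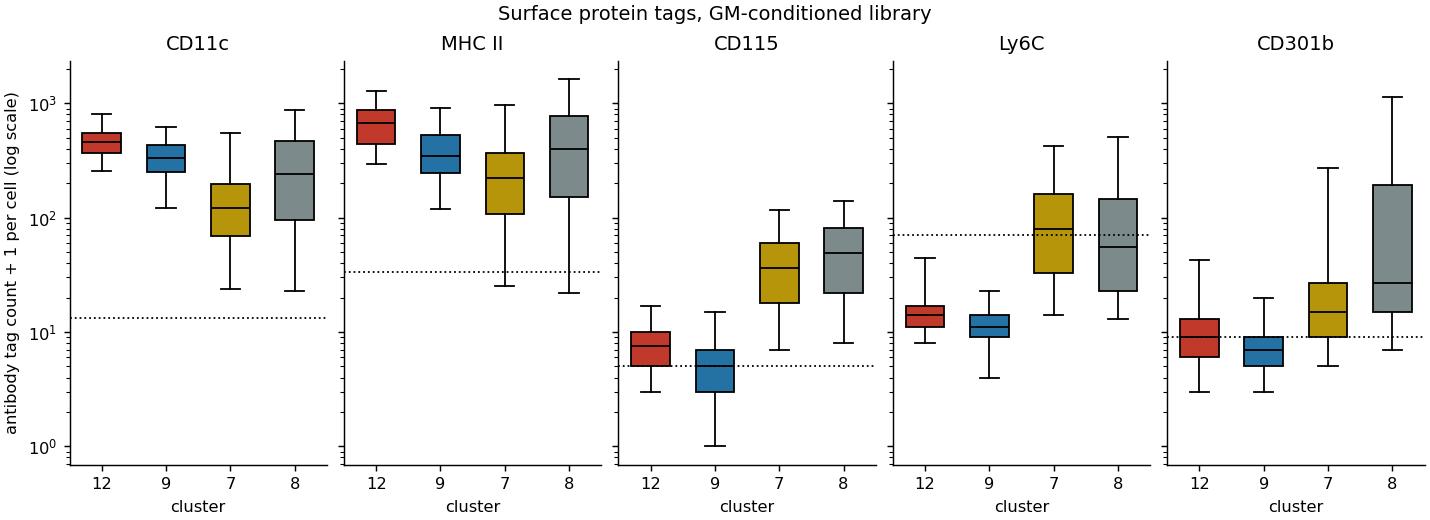
Antibody tag counts plus 1 per cell on a log axis in GM-conditioned clusters 12, 9, 7 and 8, a panel for each protein. Boxes span the quartiles with the median as a line, whiskers the 5th to 95th percentiles, and the dotted line is the 95th percentile of T cells. Cluster 12 is high in CD11c and MHC II (medians 459 and 668) and lies with cluster 9 in CD115 and Ly6C (6.5 against 4 and 13 against 10).

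The 10 genes with the highest ratios to cluster 9 had at most 3 UMIs there. Spc25, part of the kinetochore, stood at 119 CPM in cluster 12 with no UMI in cluster 9, which is at least 58.9-fold higher, taking 3 counts for the group at 0. Esco2, which locks sister chromatids together, was at least 58.2-fold higher, Mxd3, a partner of the transcription factor Max, at least 47.4-fold and the mitotic kinase Pbk at least 36.6-fold. The repair genes Rad51ap1 and Brip1 (at least 29.8-fold and 28.8-fold) and the centriole gene Stil (at least 21.3-fold) followed. The ratios of 2 others came from single cells, as all Gzma UMIs of cluster 12 lay in 1 cell and 96.9% of those of Gm5483 in 1 cell. At the lower end were Bmf, which promotes cell death (3.96 against 29.6 CPM, ratio 0.134), Slfn5 (12.5 against 62.5 CPM), Pik3ip1, an inhibitor of PI3 kinase (7.91 against 37.0 CPM), Ccnd2, P2rx4, the integrin Itgae (7.91 against 30.9 CPM, 0.256), Prrc1, Unc13d, Prkab2 and Lrpprc.

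Against clusters 7 and 8 the highest ratios were, apart from Gzma, those of genes that cluster 9 also held. Gp2 stood at 34.3 CPM in cluster 12, 33.6 in cluster 9 and no UMI in clusters 7 and 8 (at least 77.1-fold higher). Ppp1r14a, an inhibitor of protein phosphatase 1, stood at 280 and 212 CPM in clusters 12 and 9 against 4.21 and 3.83 in clusters 7 and 8. Cdh17, a cadherin (38.9 CPM in cluster 12 and 1 UMI in clusters 7 and 8, 263-fold, 45.3 to 10545), Dtx1 (2 UMIs, 180-fold, 48.3 to 1514), the sodium channel gene Scn3a (93.0 CPM, 105-fold), the chemokine Ccl5 (66.8-fold), Cd4 (46.5-fold), Kit (44.5-fold), Cadm3 and the single-cell signal of Gzma filled the other places. The lowest ratios were those of genes without a UMI in cluster 12, namely Vcan, F13a1, Nupr1, Klra2, Ace, F11r, Dmkn, Gstm1 and the basophil proteases Mcpt8 and Prss34, which stood at 67.7 and 67.0 CPM in cluster 7. Those genes met the UMI limit through clusters 7 and 8 alone, and Gp2 met it through cluster 12 alone. The side on which they stand was thus fixed by the limit.

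Few genes stood 2-fold above all of the clusters compared. Of 4188 genes with at least 50 UMIs in cluster 12, 9 were at least 2-fold above each of clusters 9, 7 and 8, and 5 of the 9 had most of their UMIs in 1 cell (Gzma, Gm5483 and the neutrophil granule genes Ngp, Camp and Ltf). The other 4 were the histone genes Hist3h2ba (82.4 CPM against 18.2, 6.48 and 8.20) and Hist3h2a (51.4 against 24.9, 22.3 and 21.6), Mns1 (116 against 10.8, 16.5 and 34.2) and Fam92a (35.0 against 7.40, 5.83 and 15). Histone genes are near-identical copies, so their split is uncertain. The tenth gene by rank, Tex9 (41.6 against 20.8 CPM in cluster 9), fell short of the limit. Genes below all 3 clusters were not counted, and among the genes already named Ccr2 and Clec10a stood at least 2-fold below each of them.

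Inside cluster 12, S and G2/M cells differed in cell cycle genes, held the study's dendritic list at like levels and differed in some other dendritic cell genes. Of 4188 genes tested 203 were at least 2-fold higher in the 117 G2/M cells than in the 35 S cells (4.85%) and 170 were lower (4.06%). Of 19 mitosis genes 16 were higher in G2/M (median ratio 2.96) and of 16 replication genes 12 were lower (median 0.329), which is what the labels were made from in part. Mcm2 stood at 245 CPM in S and 23.6 in G2/M, and Cenpf, a kinetochore protein, at 45.4 and 421 CPM. The dendritic list stood at 2778 CPM in S and 2636 in G2/M (ratio 0.949, 0.881 to 1.02), and 1 of its 10 genes, Ccnd1, was lower in G2/M (488 and 217 CPM). Flt3 stood at 106 and 101 CPM and Kit at 93.9 and 109 CPM. The genes of dendritic cells induced by GM-CSF summed to 179 CPM in S and 330.5 in G2/M (ratio 1.85, 1.404 to 2.47), with 2 of 5 at least 2-fold higher in G2/M, Cd209a (45.4 and 120 CPM) and Mt1 (27.3 and 59.0 CPM). The activated dendritic cell list summed to 60.6 and 111 CPM (ratio 1.84, 1.14 to 3.11), and the cDC2 gene Dtx1 was lower in G2/M (96.9 and 41.3 CPM). Relb, a subunit of NF-kappa-B, was the transcription factor that passed the limit, at 33.3 CPM in S and 77.6 in G2/M. MHC class II genes summed to 20004 CPM in S and 27012 in G2/M, with none of 10 past 2-fold, and the MHC II protein had medians of 596 and 696 tag counts. The neutrophil list summed to 6991 CPM in S and 201 in G2/M, and all 4 GM-conditioned cells with other-lineage RNA were S cells. Without them, S100a8 in the GM-conditioned cluster stood at 60.5 instead of 609 CPM. The sums and gene counts of S cells in this paragraph include these 4 cells.

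Between the libraries, cluster 12 held both its cycling and its dendritic genes, at shifted levels. By the 2-fold rule 234 of 4686 genes were higher after GM-CSF (4.99%) and 264 were lower (5.63%). The cycling list stood at 8919 CPM in the 20 steady-state cells and 12441 in the 152 GM-conditioned cells (ratio 1.39, 1.33 to 1.46), with 3 of 18 genes at least 2-fold higher and none lower. The mitosis list stood at 4827 and 6585 CPM and the replication list at 2484 and 1812 CPM, in the same direction as the shares of G2/M and S cells. The dendritic list stood at 4096 CPM in steady state and 2667 after GM-CSF (ratio 0.651, 0.608 to 0.698), with 3 of 10 genes at least 2-fold lower. Ccnd1 stood at 1035 and 276 CPM, Tbc1d4 at 528 and 237 CPM and Asb2 at 313 and 152 CPM. Cluster 9 held the dendritic list at 5654 and 3771 CPM (ratio 0.667). Flt3 stood at 146 CPM in steady state and 102 after GM-CSF, and Kit at 122 and 106 CPM.

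A list of 8 genes of dendritic cells induced by GM-CSF was low in steady-state cluster 12. All 8 are among the genes that the study picked for its P-IV cells from these libraries, so the list is not independent evidence. Summed, it stood at 65 CPM (16 UMIs) in steady state and 297 after GM-CSF (ratio 4.58, 2.79 to 8.08). Cluster 9 held it at 352 and 372 CPM (ratio 1.06, 0.925 to 1.21). In the GM-conditioned library clusters 7 and 8 held it at 356 and 670 CPM, more than cluster 12. Against these clusters none of the 8 genes was at least 2-fold higher in cluster 12 and 3 were lower. Over all genes 4.17% were higher and 8.92% lower. The lowest ratio was that of Mgl2, which encodes CD301b (0.117). Between the libraries 5 of the 8 genes had enough UMIs to be counted. Mt1 and Fgfr1 had them from the GM-conditioned cells alone, so that their place on the higher side is fixed by the limit. Mt1, a metallothionein, had no UMI in steady-state cluster 12 and stood at 52.1 CPM after GM-CSF (at least 4.28-fold higher), and Fgfr1 stood at 34.3 CPM (at least 2.82-fold). The lectin Cd209a stood at 24.4 and 104 CPM. In cluster 9 the order of Cd209a was the other way, at 173 CPM in steady state and 118 after GM-CSF. Other genes at the upper end were Cysltr1, a leukotriene receptor (60.0 CPM after GM-CSF, no UMI in steady state, at least 4.93-fold), the fungal lectin Clec4n (40.9 CPM, at least 3.36-fold), Gp2 (at least 2.82-fold), Sept3 (at least 2.71-fold), the kinase Mapk13 (57.4 against 4.06 CPM, 14.1-fold, 2.47 to 565) and the inhibitory Fc receptor Fcgr2b (90.4 against 8.12 CPM, 11.1-fold, 3.02 to 92.8). Cysltr1, Clec4n, Gp2 and Sept3 had no UMI in steady-state cluster 12, so their place on the higher side is fixed by the limit as well. The last places went to Gm5483 and Camp, whose UMIs came mostly from 1 cell.

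The lower end was led by heat shock genes and Il1b. Hspa1b and Hspa1a, near-identical copies of the inducible heat shock protein, stood at 881 and 783 CPM in steady-state cluster 12 and at 11.9 CPM each after GM-CSF. Il1b, the inflammatory cytokine, stood at 329 and 19.1 CPM. These genes moved in cluster 9 as well, where Hspa1b stood at 945 and 10.1 CPM, Hspa1a at 882 and 11.4 CPM and Il1b at 380 and 16.1 CPM in steady state and after GM-CSF. Ccl5 (313 and 39.6 CPM), Cebpb (268 and 36.3 CPM), Slpi (126 and 15.2 CPM), Ifitm1 (195 and 27 CPM), Cd22 (114 and 16.5 CPM), Chka (244 and 38.3 CPM) and Slc12a2 (162 and 27.7 CPM) followed. In steady state 61 of the 77 Ccl5 UMIs, 31 of the 66 Cebpb UMIs and 19 of the 31 Slpi UMIs lay in 1 cell each, and 8 of the 28 Cd22 UMIs came from the cell with B cell genes. Without the cells of other lineages the ratio of the GM-conditioned to the steady-state library was 0.257 instead of 0.121 for Slpi, 0.0676 instead of 0.127 for Ccl5 and 2.61 (0.412 to 109) instead of 28.3 for Camp. The counts between the libraries were then 256 higher (5.67%) and 250 lower (5.53%) of 4517, and without the cell with B cell genes as well 234 higher and 282 lower of 4492.

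**Figure D5:**
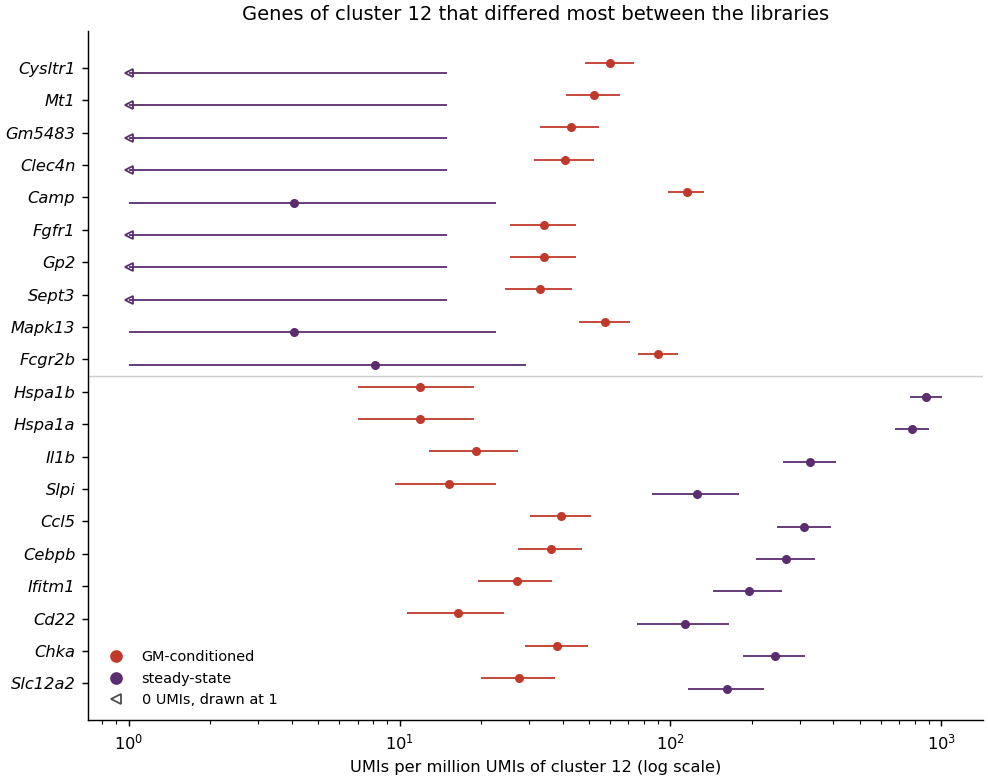
The 10 genes with the highest and the 10 with the lowest ratio of the GM-conditioned to the steady-state library in cluster 12, in CPM on a log axis with exact Poisson 95% intervals (counting error only). Genes without a UMI are drawn at 1, and intervals are cut at the edge of the axis. Hspa1b shows the widest gap at the lower end, with 881 CPM in steady state and 11.9 after GM-CSF.

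In steady state alone, cycling genes again stood higher in cluster 12 than in cluster 9. Of 3806 genes 218 were at least 2-fold higher (5.73%) and 261 lower (6.86%), and 16 of 16 cycling genes with enough UMIs were higher (median ratio 29.3). The study's list was chosen on cells of both libraries. Of the 10 dendritic genes 2 were lower (median 0.808), and none of the 10 MHC class II genes passed the limit. The larger cycling ratio came with a lower level in cluster 9, at 536 CPM in steady state and 1794 after GM-CSF (ratio 3.35). There, 12 of 16 cycling genes were at least 2-fold higher after GM-CSF, beside 4.0% of all 5706 genes, and none lower, beside 7.71%.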

How the data were processed

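CITE-seq counts of CD11b+ splenocytes were analysed from 1 steady-state and 1 GM-conditioned library. The authors deposited raw counts, as UMIs per gene and counts per antibody tag, and per cell the percent of mitochondrial UMIs, the S and G2/M score, the phase and the cluster. Cell Ranger 3.0.2, Seurat 3.6.0 and mm10 are named in the submitters' processing notes. No further cell was removed. Deposited scores were used only through the phase, and the files' percent of mitochondrial UMIs reached 14.4 at most in the cells used.

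UMIs were summed over the cells of a cluster and library and divided by the total (CPM). Sums carry exact Poisson, shares exact binomial (Clopper-Pearson) 95% intervals, and ratios the exact interval of the binomial share of the counts. Intervals of ratios and gene counts by the 2-fold rule were first tried on simulated data. No test was made, since cells are not replicates. Doublets were called with Scrublet in scanpy in each library and kept. Of 27998 genes, 11100 had no UMI. Members, gene lists and comparisons were chosen with earlier results of these data known. Named genes were list members by role, the 10 highest and 10 lowest ratios of each main comparison, and the 10 highest of cluster 12 to each of clusters 9, 7 and 8, without Xist and Y-linked genes. Of 277 listed genes, 274 were in the table, and Ighm, Trac and Trbc2 were not analysed here. Alternatives covered doublets, depth, phase, library, cell weights, tag scaling and count limits. Leaving out cells with RNA of other lineages was chosen after seeing the data. Python 3.11.15, numpy 2.4.6, pandas 2.3.3, scipy 1.17.1, scanpy 1.11.5, anndata 0.12.19 and matplotlib 3.10.9 were used.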

Additional observations from a re-analysis of the deposited data

How the results depend on the processing

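Of 106 alternative values, 53 planned and 19 added after seeing the data stayed within the limits set for a change, 33 moved and 1 changed direction. The ratio of the cycling list in cluster 12 to clusters 7 and 8 was 0.857 in the steady-state library and 1.43 with cells thinned to 1000 UMIs, 1.28 in S or G2/M cells alone and 1.42 with each cell weighted equally. To cluster 9 it was 6.56 with only cells of the progenitor DC cluster, 3.76 in S or G2/M cells and 16.6 in steady state. The dendritic list was at 0.831 to cluster 9 in S or G2/M cells, and at 10.2 (thinned) and 6.38 (steady state) to clusters 7 and 8. Genes at least 2-fold higher than in cluster 9 numbered 677 with a minimum of 20 UMIs, 149 with 200, 67 with thinned cells and 218 in steady state, and lower ones 294, 2, 20 and 261, or 53 with 5 counts added and 54 in S or G2/M cells. Against clusters 7 and 8, higher genes numbered 597 (20 UMIs), 138 (200 UMIs), 98 (thinned) and 168 (steady state), and lower ones 352 (200 UMIs), 264 (thinned) and 280 (steady state). Fewer genes were tested with the higher minimum and the thinned cells, and for the other changes the cause was not tested. Scaled tag medians in cluster 12 were 272 for CD11c, 395 for MHC II, 3.77 for CD115, 7.66 for Ly6C and 4.85 for CD301b. Cells with Flt3 and a Mki67 or Top2a UMI made up 67.1% unthinned and 13.2% at 2000 UMIs.

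The 20 steady-state cells set a floor of 12.2 CPM for a gene with 3 counts, against 1.98 CPM in the 152 GM-conditioned cells, so low genes could not be compared between the libraries. No paired analysis was possible because each group has a single sample and the only replicate number is 1.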
